A study of Mus musculus with 4 samples.

Results

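The genes described here are 8 components of activin signaling, out of 45706 features counted in nuclei of the adult mouse dentate gyrus. They are the ligand subunit gene Inhba, the type I receptors Acvr1c, Acvr1b and Acvr1, the type II receptors Acvr2a and Acvr2b, and the effectors Smad2 and Smad3. They were listed as a pathway, and the list was chosen by measured values, the UMI levels in the cluster GCmat2 against GCmat1 and GCyoung, so those contrasts are given as a description with no test. All 8 passed the filter on low counts, all are in the deposited expression table, and all had a UMI in at least 1 nucleus of GCmat2. A UMI (unique molecular identifier) marks 1 captured RNA molecule.

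The study followed neurons born in the adult dentate gyrus, from radial glia-like cells (RGL) to mature granule cells. Mice carried a tamoxifen-inducible Cre and the conditional reporter CAG-floxStop-Sun1/sfGFP, so that tamoxifen put a GFP tag on the nuclear envelope of the recombined cells and of their progeny in every group. The mice had a C57BL/6J background and, per the methods, an age of 6 to 8 weeks. Nuclei were taken 1, 2, 4 or 8 weeks after tamoxifen (libraries w1, w2, w4 and w8), with 1 library per week, each a pool of 4 left dentate gyri from mice of both sexes, so no test between weeks was possible. A week therefore cannot be told apart from a pool of mice or a library. Only cells in which Cre was active at induction, and their progeny, carry the tag. The authors assigned nuclei to RGL, astrocytes (Astro), neural progenitor cells (NPC), neuroblasts (NB1 and NB2), immature granule cells (GCimm1 and GCimm2), young granule cells (GCyoung), mature granule cells (GCmat1 and GCmat2) and 3 small clusters of other glia and pericytes.

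Activins are dimers of inhibin beta subunits, and Inhba encodes the subunit of activin A, which hippocampal neurons are known to make in response to activity. A ligand binds a type II receptor, which phosphorylates a type I receptor. Acvr1b and Acvr1c then phosphorylate Smad2 and Smad3, which enter the nucleus with Smad4, whereas Acvr1 acts mainly through the Smads of the bone morphogenetic protein branch.

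The 4 libraries held 17046 barcodes, of which 14367 have a deposited cluster (2867 to 4243 per library), with 13227971 to 28595331 UMIs per library over these nuclei and a median of 4369 to 7704 per nucleus. Pairs of libraries shared 27 barcodes in all, and no library pair stood apart by this count. Neuronal and granule cell markers were present in GCmat2. Rbfox3 (also known as NeuN) stood there at 552.6 CPM (counts-per-million, UMIs of the gene relative to all UMIs of the same nuclei) in w4 and 561.5 CPM in w8, and Prox1, the transcription factor of granule cells, at 373.5 and 286.1 CPM. The 5 markers of mature granule cells all had UMIs in GCmat2 and summed to 3923 CPM in w4 and 4198 CPM in w8, against 5069 and 5225 CPM in GCmat1. They differed among themselves. Calb1, a calcium buffer, was at 53.0 and 23.5 CPM in GCmat2 against 141.4 and 119.9 CPM in GCmat1, whereas Ntng1 was at 462.0 and 811.5 CPM against 112.0 and 426.8 CPM. Of 3 interneuron markers, Gad2 and Slc32a1 had 0 UMIs in GCmat2 and Gad1 stood at 42.0 and 47.8 CPM, beside 43.3 and 38.5 CPM in GCmat1. The summed level of that list was 42.0 to 47.8 CPM in GCmat2 and 39.3 to 44.9 CPM in GCmat1. Of 3 markers of mossy cells and CA3, Drd2 had 0 UMIs in both clusters, Calb2 had 1 UMI in each GCmat2 library, and Cpne4, which the study counts among the markers of mature granule cells, was at 139.2 and 203.1 CPM in GCmat2 against 190.5 and 312.3 CPM in GCmat1, so its level is not specific to mossy or CA3 cells. Sums of UMIs cannot tell fewer expressing nuclei from less RNA per nucleus, and shares of nuclei are given where that matters.

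The genes that change most between the clusters have different promoter letters, shown here for Acvr1c, Smad3 and Inhba. Each window runs from 250 bases before to 50 bases after the RefSeq gene start in GRCm38.p6, 5′ to 3′ on the gene's strand. Capitals mark GC boxes (GGGCGG or its reverse complement) in Acvr1c and Smad3, and a match to the letters TATAAA in Inhba, whose place in the window was not used.
Acvr1c promoter, chr2:58357709-58358008, minus strand: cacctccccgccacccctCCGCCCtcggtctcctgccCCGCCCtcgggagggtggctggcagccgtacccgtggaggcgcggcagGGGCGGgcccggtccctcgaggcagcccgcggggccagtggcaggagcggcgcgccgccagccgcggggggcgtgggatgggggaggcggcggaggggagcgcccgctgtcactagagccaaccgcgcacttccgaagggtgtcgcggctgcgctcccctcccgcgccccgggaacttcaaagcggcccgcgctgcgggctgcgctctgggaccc
Smad3 promoter, chr9:63757945-63758244, minus strand: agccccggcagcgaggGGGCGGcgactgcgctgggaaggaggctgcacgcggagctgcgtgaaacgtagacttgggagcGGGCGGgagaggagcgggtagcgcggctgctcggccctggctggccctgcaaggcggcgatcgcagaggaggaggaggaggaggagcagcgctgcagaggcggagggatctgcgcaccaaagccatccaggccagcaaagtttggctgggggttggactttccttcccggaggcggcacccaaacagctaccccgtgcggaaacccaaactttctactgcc
Inhba promoter, chr13:16011601-16011900, plus strand: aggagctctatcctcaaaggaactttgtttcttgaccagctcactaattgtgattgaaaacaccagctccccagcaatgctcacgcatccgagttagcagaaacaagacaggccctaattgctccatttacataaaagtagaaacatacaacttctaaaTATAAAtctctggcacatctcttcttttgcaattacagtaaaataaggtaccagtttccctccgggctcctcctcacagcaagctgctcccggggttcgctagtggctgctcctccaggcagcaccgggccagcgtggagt

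GC boxes occurred 3 times in the Acvr1c window, 2 times in that of Smad3 and 0 times in that of Inhba, and 35.7% of 32851 RefSeq promoters of this length held at least 1. TATAAA occurred once in the Inhba window and was found in 13.6% of all promoters, on either strand. The windows of Acvr2a, Acvr2b, Acvr1 and Acvr1b held 3, 3, 6 and 4 GC boxes. The window of Smad2 was not analysed here. None of the member windows searched held the cAMP response element TGACGTCA (1.79% of all promoters), its core TGACG (20.8%), the AP-1 site TGANTCA (7.81%) or the palindromic Smad element GTCTAGAC (0.213%). The core lies inside the full cAMP response element, so those 2 searches overlap. A second RefSeq start of Acvr1c was searched as well and held none of the letters.

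In GRCm38 with GENCODE gene models, Acvr1c (ENSMUSG00000026834) spans 58267453 to 58357895 on the minus strand of chromosome 2, and Acvr1 (ENSMUSG00000026836) lies beside it from 58388644 to 58567157 on the same strand. Acvr2a (ENSMUSG00000052155) lies on the same chromosome from 48814109 to 48903269, plus strand. Inhba (ENSMUSG00000041324) spans 16011851 to 16031621 on the plus strand of chromosome 13. Smad3 (ENSMUSG00000032402, 63646767 to 63757994, minus strand) and Acvr2b (ENSMUSG00000061393, 119402118 to 119434995, plus strand) are on chromosome 9, Acvr1b (ENSMUSG00000000532, 101174067 to 101213684, plus strand) on chromosome 15 and Smad2 (ENSMUSG00000024563, 76241580 to 76310963, plus strand) on chromosome 18. Counts covered exons and introns of the whole gene. Acvr2a overlaps Orc4 on the opposite strand (8883 UMIs over all clustered nuclei), Acvr1c overlaps the antisense gene Gm13544 (126 UMIs) and Acvr1 overlaps Gm17409 (36 UMIs), so values of these genes are less certain where reads could be assigned to either strand.

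The largest differences between clusters lay in Smad3, Inhba and Acvr1c. Smad3 was present in RGL, near 0 from NB1 to GCimm2 and present again from GCyoung on. Inhba was also present in RGL, was near 0 already in NPC and stood higher again from GCimm1 on. Acvr1c was at most 11.0 CPM in RGL and NPC and at 48.1 CPM or above in GCyoung, with overlapping ranges in between. Acvr2b and Smad2 ran the other way, with their highest levels in NPC.

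**Figure D1:**
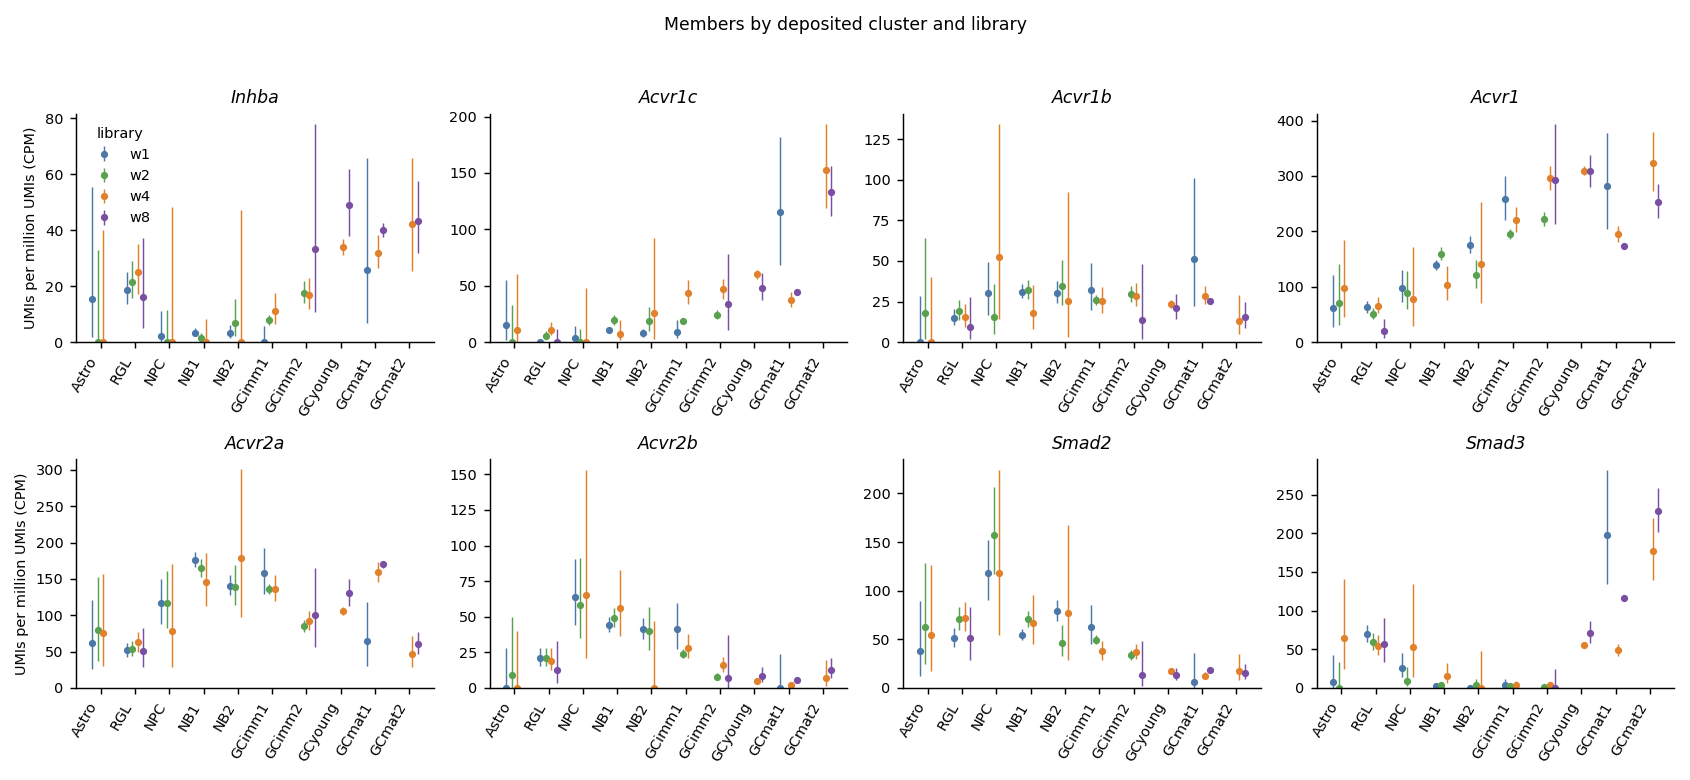
Level of each gene (UMIs in counts-per-million, linear axis from 0) in each cluster along the horizontal axis, with 1 point per library of at least 10 nuclei and exact 95% Poisson intervals as bars. Smad3 is low from NB1 to GCimm2, Acvr1c is highest in GCmat2 (152.5 CPM in w4 and 132.7 CPM in w8), and Acvr2b and Smad2 are highest in NPC.

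Inhba, the ligand subunit, stood at 18.7, 21.6, 25.0 and 15.9 CPM in RGL of w1, w2, w4 and w8. In NPC it had 1 UMI in w1 and 0 UMIs in w2 and w4. In NB1 it was at 3.30 CPM in w1 and 1.47 CPM in w2, with 0 UMIs in w4. Every RGL library was above every NPC and NB1 library. In w4 the 0 UMIs of NPC leave this order open, as the exact 95% upper limit of the log2 difference from RGL to NPC was 1.03. Over all nuclei the RGL level was 9.58-fold that of NPC (exact 95% interval 2.60 to 79.98), which rests on 2 UMIs in NPC. In GCimm1 the values were 0 UMIs in w1, 7.77 CPM in w2 and 11.1 CPM in w4, and in GCimm2 they were 17.6, 16.8 and 33.3 CPM in w2, w4 and w8. GCyoung had 33.9 CPM in w4 and 48.8 CPM in w8, and GCmat1 had 25.6, 31.9 and 39.9 CPM in w1, w4 and w8. The ranges of GCyoung and GCmat1 overlap, so their order is not resolved.

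Consecutive clusters were compared with edgeR's quasi-likelihood test on UMI sums per library and cluster, with Benjamini-Hochberg adjustment over 13513 genes. A gene was called at a fold of at least 1.5 and an adjusted p of at most 0.05. The fit scales the sums with TMM factors, while CPM divides by all UMIs, so a fitted change can differ from the ratio of CPM values. From GCimm2 to GCyoung, Acvr1 had a fitted log2 change of 0.53, against 0.07 by CPM within w4 and 0.07 within w8. The authors drew the clusters on the same expression values, so these p-values describe how sharply the clusters differ and are no independent test of the differences. From RGL to NPC, Inhba fell by 4.38 on the log2 scale (SE 0.92, edgeR adjusted p = 0.000131). It rose at 3 steps: by 1.68 (SE 0.40, adjusted p = 0.0013) from NB1 to GCimm1, by 1.31 (SE 0.28, adjusted p = 0.000657) to GCimm2 and by 1.18 (SE 0.27, adjusted p = 0.00086) to GCyoung. The first 2 of these rises lost their call without w2 (log2 1.18, adjusted p = 0.369, and log2 1.26, adjusted p = 0.25), and the third without w4 (log2 1.24, adjusted p = 0.256). The rise into GCimm1 was also lost after thinning nuclei to 2000 UMIs (log2 1.24, adjusted p = 0.104). From GCyoung to GCmat1 the difference was -0.11 (SE 0.21, adjusted p = 0.962).

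Acvr1c, a type I receptor of the activin branch, had 0, 12, 15 and 0 UMIs in RGL of w1, w2, w4 and w8, and 2, 0 and 0 UMIs in NPC of w1, w2 and w4. NB1 had 10.8, 19.3 and 6.72 CPM in w1, w2 and w4. GCimm1 had 9.16, 18.6 and 43.7 CPM in the same weeks. GCimm2 had 24.1, 46.6 and 33.3 CPM in w2, w4 and w8, and GCyoung had 60.04 and 48.1 CPM in w4 and w8. The ranges of RGL and NPC overlap, as do those of NB1 and GCimm1 and of GCimm1 and GCimm2. The NB1 libraries lie above those of NPC, and both GCyoung libraries lie above all 3 of GCimm2. In w4 the order of NB1 and NPC rests on 3 UMIs against 0. Over all nuclei the NB1 level was 6.33-fold that of NPC (exact 95% interval 1.72 to 52.7), again resting on 2 UMIs in NPC. That step was called (log2 2.89, SE 1.05, edgeR adjusted p = 0.0292), and the call was lost without w2 (log2 1.83, adjusted p = 0.305), with DESeq2 (log2 2.55, adjusted p = 0.0842), with RLE factors (log2 2.77, adjusted p = 0.0642) and with no library term (log2 2.87, adjusted p = 0.0719). No later step passed the test. The fitted difference from GCimm2 to GCyoung was 0.75 (SE 0.29, adjusted p = 0.0605). By CPM within a library it was smaller, at 0.37 in w4 and 0.53 in w8. From GCyoung to GCmat1 the fitted difference was -0.18 (SE 0.25, adjusted p = 0.939), and its sign turned without w4 (0.071) and with DESeq2 (0.41).

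Within GCmat1 the 2 libraries of substance, w4 (403 nuclei) and w8 (2927 nuclei), had 37.2 and 44.4 CPM of Acvr1c, whereas 17 nuclei of w1 had 115.3 CPM (exact 95% interval 68.3 to 182.2). These 17 nuclei carry a mature label 1 week after induction, and they raise the mean of GCmat1 to 65.6 ± 43.2 CPM (SD, n = 3 libraries). Within GCimm1 and GCimm2 the w4 library was above w2, by 2.34-fold (43.7 against 18.6 CPM) and by 1.93-fold (46.6 against 24.1 CPM).

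Acvr1b, the other activin type I receptor, passed the test at none of the 6 steps (adjusted p 0.355 to 0.958, and unadjusted p 0.074 or above). Its level was 14.8 ± 4.0 CPM in RGL (SD, n = 4 libraries) and between 22.1 and 35.0 CPM in the cluster means from NPC to GCmat1. Acvr1, the type I receptor of the bone morphogenetic protein branch, stood at 62.6, 50.7, 65.5 and 19.1 CPM in RGL of w1, w2, w4 and w8. In NB1 it was at 139.1, 159.7 and 103.1 CPM in w1, w2 and w4, and in GCimm1 at 258.0, 194.9 and 220.4 CPM. GCyoung had 309.9 and 308.1 CPM in w4 and w8, and GCmat1 had 194.9 and 173.4 CPM in the same weeks. All libraries of GCimm1 are above all of NB1, and those of NB1 are above those of NPC. Acvr1 rose from NPC to NB1 (log2 0.88, SE 0.23, adjusted p = 0.00239) and from NB1 to GCimm1 (log2 0.78, SE 0.17, adjusted p = 0.000331). The first of these calls was lost without w2 (log2 0.68, adjusted p = 0.115) and with nuclei thinned to 2000 UMIs (log2 0.57, adjusted p = 0.102). It fell by 0.69 (SE 0.18, adjusted p = 0.0111) from GCyoung to GCmat1. That call was lost without w4 (log2 -0.76, adjusted p = 0.233), without w8 (log2 -0.66, adjusted p = 0.213) and with no library term (log2 -0.64, adjusted p = 0.161).

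Acvr2a, a type II receptor that binds activins directly, stood at 51.8, 53.1, 62.6 and 51.0 CPM in RGL of the 4 weeks, at 116.2, 117.1 and 78.6 CPM in NPC of w1, w2 and w4 and at 176.3, 164.4 and 145.6 CPM in NB1. The ranges of the 3 clusters do not overlap. It rose at both steps, by 0.78 (SE 0.23, adjusted p = 0.00788) and 0.81 (SE 0.22, adjusted p = 0.0025) on the log2 scale. The rise to NPC lost its call without w1 (log2 0.62, adjusted p = 0.109), without w2 (log2 0.73, adjusted p = 0.0936) and after thinning (log2 0.63, adjusted p = 0.0797). From GCimm1 to GCimm2 the difference was -0.53 (SE 0.18, adjusted p = 0.0392), short of the fold required. Acvr2b, the other type II receptor, had 64.1, 58.5 and 65.5 CPM in NPC of w1, w2 and w4 and 12.7 to 20.9 CPM in RGL. It reached 7.78, 15.97 and 6.66 CPM in GCimm2 of w2, w4 and w8, and 4.75 and 8.37 CPM in GCyoung of w4 and w8. Acvr2b rose from RGL to NPC (log2 1.40, SE 0.32, adjusted p = 0.000518), fell by 0.64 (SE 0.21, adjusted p = 0.0343) from NB1 to GCimm1 and fell by 1.21 (SE 0.27, adjusted p = 0.00103) from GCimm1 to GCimm2. The last of these falls lost its call without w2 (log2 -0.93, adjusted p = 0.355), and the fall from NB1 without w2 (log2 -0.30, adjusted p = 0.787), without w4 (log2 -0.61, adjusted p = 0.0819), with DESeq2 (log2 -0.56, adjusted p = 0.453), with no library term (log2 -0.64, adjusted p = 0.195) and after thinning (log2 -0.52, adjusted p = 0.143).

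Smad3, an effector of activin and TGF-beta receptors, stood at 69.6, 59.2, 54.5 and 57.4 CPM in RGL of w1, w2, w4 and w8. In NPC it was at 26.1, 9.24 and 52.4 CPM in w1, w2 and w4, and in NB1 at 2.36, 3.18 and 15.7 CPM. GCimm1 had 3.05, 2.47 and 4.31 CPM in the same weeks. GCimm2 had 1.60 CPM in w2, 3.45 CPM in w4 and 0 UMIs in w8. GCyoung had 55.7 CPM in w4 and 71.1 CPM in w8, so no library of GCyoung comes near any of GCimm2. In w8 the GCyoung level was at least 3.56-fold higher than that of GCimm2, counted against 3 UMIs in that library. Smad3 fell by 1.76 (SE 0.43, adjusted p = 0.000915) from RGL to NPC and by 2.48 (SE 0.65, adjusted p = 0.00193) from NPC to NB1, and rose by 4.81 (SE 0.42, edgeR adjusted p = 3.27e-13) from GCimm2 to GCyoung. The first fall lost its call with DESeq2 (log2 -1.56, adjusted p = 0.133) and the next one without w1 (log2 -1.62, adjusted p = 0.251). The rise into GCyoung kept its call under all 10 alternatives.

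The step of Smad3 from GCyoung to GCmat1 was -0.19 on the log2 scale in w4 (55.7 to 48.8 CPM, exact 95% interval of the log2 difference -0.43 to 0.05, which includes 0) and positive in w8 (71.1 to 116.2 CPM, log2 0.71, interval 0.42 to 1.01). In the edgeR fit, which also holds the 17 GCmat1 nuclei of w1 (198.5 CPM), it was 0.47 (SE 0.22, adjusted p = 0.387). With 1 library per week the difference between the weeks was not tested. Outside the neuronal clusters, the pericyte-labelled nuclei had the highest Smad3, at 405.4 and 437.5 CPM in 2 libraries.

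Smad2, the other effector, had its high levels early. It stood at 118.2, 157.1 and 118.0 CPM in NPC of w1, w2 and w4, above all libraries of every other cluster of the trajectory, at 33.7, 36.7 and 13.3 CPM in GCimm2 of w2, w4 and w8, and at 16.9 and 13.2 CPM in GCyoung of w4 and w8. It rose from RGL to NPC (log2 0.79, SE 0.23, adjusted p = 0.00515), fell by 0.83 (SE 0.22, adjusted p = 0.00287) to NB1 and fell by 0.77 (SE 0.24, adjusted p = 0.0164) from GCimm2 to GCyoung. Without w2 the rise to NPC (log2 0.73, adjusted p = 0.0762) and the fall to GCyoung (log2 -0.82, adjusted p = 0.052) were not called. The fall to GCyoung was also lost without w4 (log2 -0.89, adjusted p = 0.561) and after thinning (log2 -0.51, adjusted p = 0.302).

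**Figure D2:**
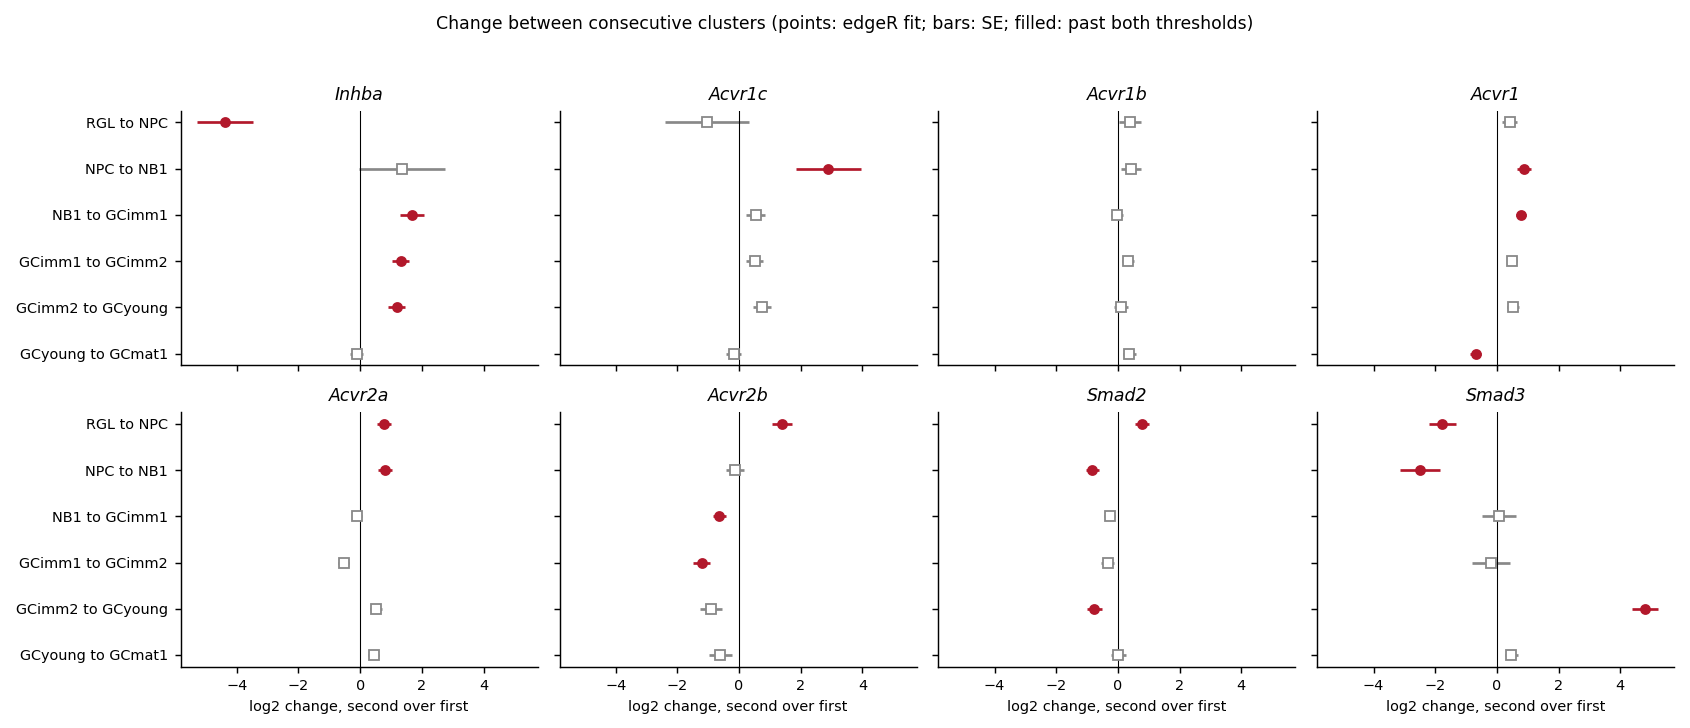
Fitted log2 change of each gene (horizontal axis, one panel per gene) at each of the 6 steps between consecutive clusters (vertical axis), with SEs as bars, filled red circles for calls and open squares for steps that were not called. The largest changes are the fall of Inhba by 4.38 from RGL to NPC and the rise of Smad3 by 4.81 from GCimm2 to GCyoung, and Acvr1b has no call.

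Counted over the 8 genes, 5 were called from RGL to NPC (3 higher, 2 lower) where 29.5% of all genes tested were called, and 5 from NPC to NB1 (3 higher, 2 lower) against 29.3%. From NB1 to GCimm1 3 were called (2 higher, 1 lower) against 12.5%, and from GCimm1 to GCimm2 2 (1 higher, 1 lower) against 9.43%. From GCimm2 to GCyoung 3 were called (2 higher, 1 lower) against 18.9%, and from GCyoung to GCmat1 1 (lower) against 3.85%. The median log2 change of the 8 genes was 0.40, 0.62, 0.02, 0.06, 0.52 and -0.05 at the 6 steps, beside -0.05, 0.06, -0.01, -0.02, 0.03 and -0.005 over all genes tested. Without w4 the last 2 steps lost most calls over all genes, from 2553 to 487 and from 520 to 216, and without w2 the steps into GCimm1 and GCimm2 went from 1691 to 780 and from 1274 to 410.

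The deposited pseudo-time, the authors' position of a nucleus along the trajectory, resolved these courses further. In bins of 2 units over all libraries, Acvr1c stood at 41.7 CPM from 20 to 22, at 90.0 CPM from 24 to 26, at 55.8 CPM from 26 to 28, at 33.7 CPM from 28 to 30 and at 51.9 CPM from 30 to 32. Acvr1 had its highest bin at the same place, with 388.9 CPM from 24 to 26 and 183.9 CPM from 28 to 30. Smad3 was still at 26.1 CPM from 24 to 26, then stood at 75.1, 78.3 and 131.7 CPM in the 3 bins after it. Inhba was at 23.4 CPM from 20 to 22 and between 34.0 and 42.8 CPM in the bins from 24 on. The bins pool libraries of different weeks, and 1979 of 2176 GCyoung nuclei came from w4, so position and library cannot be told apart here.

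**Figure D3:**
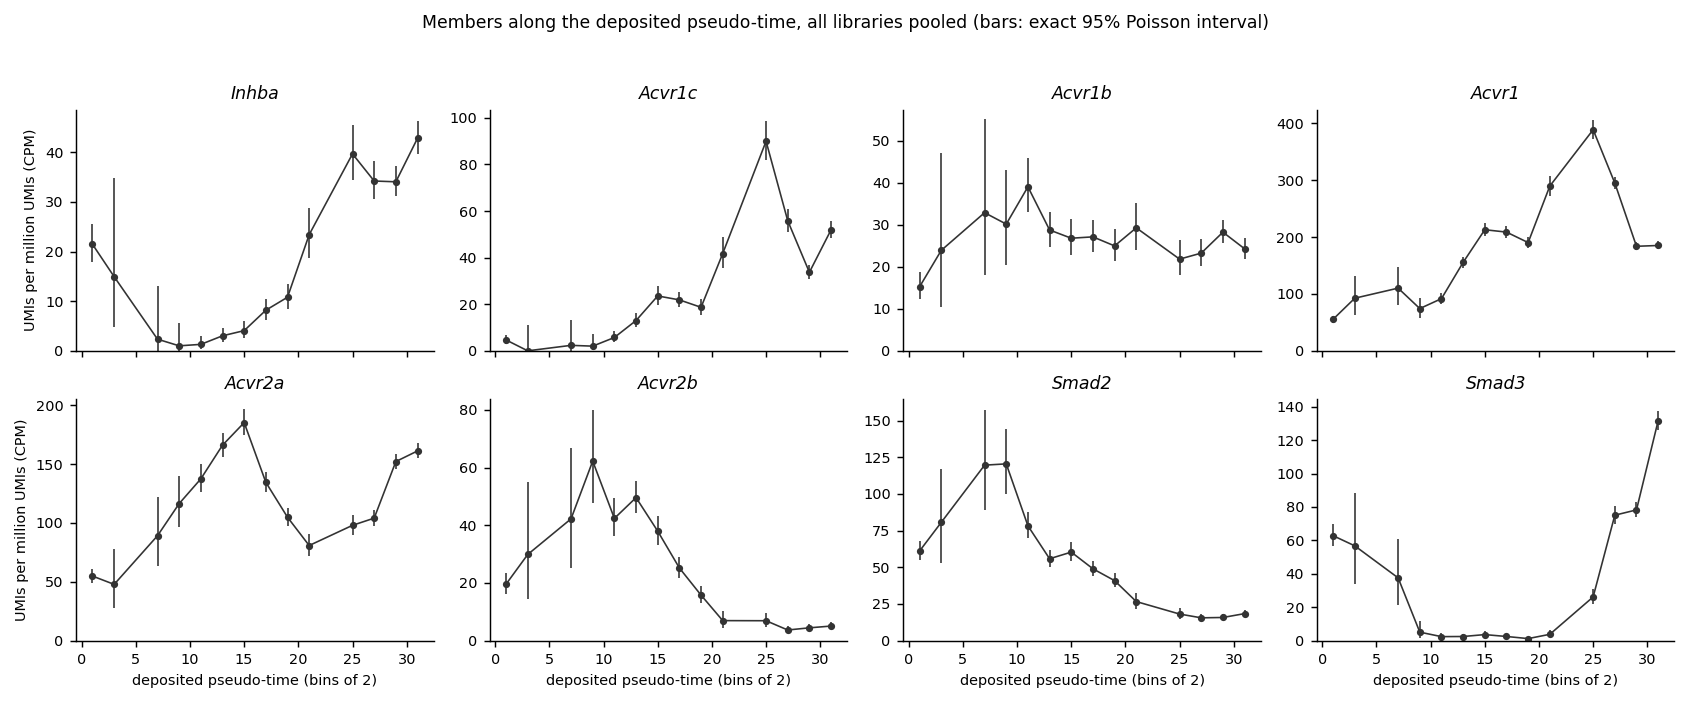
Level of each gene (UMIs in counts-per-million, linear axis from 0) against the deposited pseudo-time in bins of 2 units, all libraries pooled, with exact 95% Poisson intervals as bars and bins of under 20 nuclei left out. Acvr1c and Acvr1 have their highest value from 24 to 26 (90.0 and 388.9 CPM), before Smad3 has its highest (131.7 CPM from 30 to 32).

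GCmat2 is a small cluster of 60 nuclei in w4 and 149 nuclei in w8 that the pseudo-time leaves out. Acvr1c stood there at 152.5 CPM in w4 and 132.7 CPM in w8. In the same libraries it was at 37.2 and 44.4 CPM in GCmat1, and at 60.04 and 48.1 CPM in GCyoung. Both GCmat2 libraries were above every library of at least 10 nuclei of any other cluster. GCmat2 over GCmat1 was 4.10-fold in w4 (exact 95% interval 3.02 to 5.53) and 2.99-fold in w8 (2.50 to 3.55), and GCmat2 over GCyoung was 2.54-fold (1.96 to 3.25) and 2.76-fold (2.06 to 3.73). On the deposited values, which are log2(normalized count + 1) per nucleus and so understate changes of low genes, the mean log2 difference was 0.57 over GCmat1 and 0.52 over GCyoung, in place of 1.81 and 1.40 from the UMI sums. These contrasts chose the genes and carry no test.

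Among the other genes, Smad3 was at 176.8 and 229.3 CPM in GCmat2 of w4 and w8, against 48.8 and 116.2 CPM in GCmat1 and 55.7 and 71.1 CPM in GCyoung. The 17 GCmat1 nuclei of w1 had 198.5 CPM of Smad3, so the library ranges of GCmat2 and GCmat1 overlap. They also had 281.8 CPM of Acvr1, 64.0 CPM of Acvr2a, 51.2 CPM of Acvr1b and 25.6 CPM of Inhba. Acvr2a went the other way, with 46.4 and 60.5 CPM in GCmat2 against 159.2 and 170.0 CPM in GCmat1 and 105.7 and 130.4 CPM in GCyoung. The range of GCmat2 overlaps that of RGL and lies below those of all other neuronal clusters. Inhba was at 42.0 and 43.3 CPM in GCmat2, with ratios of 1.32 (0.765 to 2.15) in w4 and 1.09 (0.795 to 1.45) in w8 over GCmat1, so no difference was detectable at this depth. Acvr1 was at 322.7 and 253.6 CPM in GCmat2, that is 1.66-fold and 1.46-fold GCmat1 and 1.04-fold and 0.82-fold GCyoung. Acvr1b (6 and 17 UMIs) was at 13.3 and 15.3 CPM in GCmat2 and 28.6 and 25.3 CPM in GCmat1. Acvr2b (3 and 14 UMIs) and Smad2 (8 and 17 UMIs) rest on few molecules there.

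By the rule of at least 1.5-fold the same way in w4 and w8, GCmat2 had 3 of the 8 genes higher (Acvr1c, Smad3, Acvr2b) and 2 lower (Acvr1b, Acvr2a) than GCmat1, where 18.5% of all genes tested passed it. Over GCyoung it had 2 higher (Acvr1c, Smad3) and 1 lower (Acvr2a), where 16.4% passed. Acvr1 lies just outside the rule, at 1.46-fold in w8, and Acvr1b just inside, at 0.61-fold in w8.

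**Figure D4:**
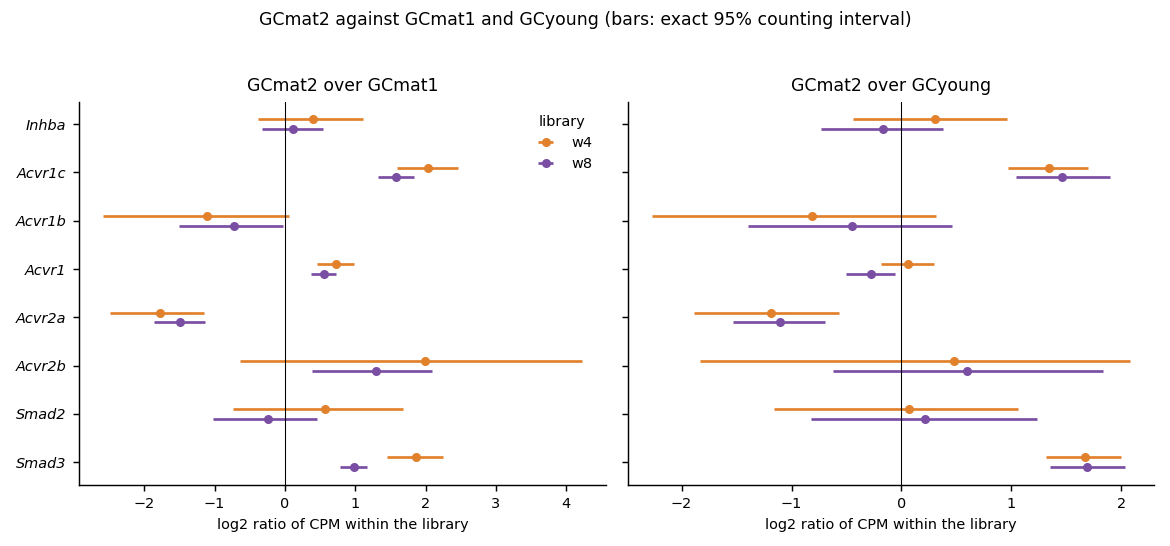
Log2 ratio of GCmat2 over GCmat1 (left) and over GCyoung (right) within library w4 and within w8 for each gene, with exact 95% counting intervals as bars and a line at 0. Acvr1c and Smad3 lie to the right of 0 and Acvr2a to the left in both libraries and both panels, while all intervals of Inhba and Smad2 include 0. Some intervals of Acvr1, Acvr1b and Acvr2b include 0 as well.

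The share of nuclei with a UMI moved with the level. With each nucleus thinned to 2000 UMIs, 51 of 209 GCmat2 nuclei had an Acvr1c UMI (24.4%, exact Clopper-Pearson 95% interval 18.7 to 30.8), against 8.88% of 3356 GCmat1 nuclei (7.94 to 9.89) and 10.7% of 2175 GCyoung nuclei (9.40 to 12.0). Intervals here cover counting error only. Oligodendrocytes, which should lack the gene, had 0 of 45, which allows a share of up to 6.67% counted as 3 nuclei, or 7.87% by the exact interval. Unthinned, the shares were 55.0% in GCmat2, 23.0% in GCmat1 and 26.7% in GCyoung, at median depths of 7254, 8138 and 7458 UMIs, and the 45 oligodendrocytes again had 0 at 4801 UMIs. Of 209 GCmat2 nuclei 24 had 3 or more Acvr1c UMIs, beside 104 of 3356 in GCmat1. For Smad3 the thinned shares were 29.7% (23.6 to 36.4) in GCmat2, 19.0% (17.7 to 20.4) in GCmat1 and 10.2% (8.97 to 11.6) in GCyoung, and for Acvr2a 8.13% (4.81 to 12.7), 24.9% (23.4 to 26.3) and 17.5% (15.9 to 19.1). These shares pool libraries, and GCmat1 is mostly w8 while GCyoung is mostly w4. Within w4 the thinned Smad3 shares of GCmat2, GCmat1 and GCyoung were 28.3%, 8.68% and 10.1%, and within w8 they were 30.2%, 20.4% and 12.2%, so the order of GCmat1 and GCyoung differs between the libraries. For Acvr1c they were 23.3%, 6.70% and 10.8% within w4 and 24.8%, 9.09% and 9.57% within w8. Thinned oligodendrocytes had a Smad3 UMI in 2 of 45 and an Acvr2a UMI in 0 of 45.

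The GCmat2 nuclei of w4 and w8 differed in sex call. By X- and Y-linked transcripts, 53 of 60 GCmat2 nuclei of w4 were called female and 121 of 149 of w8 male. Acvr1c stood at 147.6 CPM in the female-called GCmat2 nuclei of w4 against 34.7 CPM in GCmat1, and at 136.3 CPM in the male-called ones of w8 against 45.1 CPM. Smad3 stood at 172.2 against 49.5 CPM and at 214.0 against 117.4 CPM in the same nuclei. Only the more frequent call of each library is given here, so call and library cannot be told apart in these values.

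An activity list of 15 genes held genes known to respond to neuronal activity and genes the study named for GCmat2. Of these, 11 were tested, and Fosb, Arc, Npas4 and Nr4a1 were not. Relative to GCmat1, 8 were at least 1.5-fold higher in both libraries and 0 lower, beside 842 higher and 1662 lower of 13513 genes tested. Over GCyoung 7 were higher, Rgs6 no longer among them, and 0 lower, beside 658 higher and 1557 lower. Among those that did not pass against GCmat1, Homer1 was at 2.30-fold and 1.36-fold in w4 and w8. Junb was at 1.68-fold and 0.93-fold, and Fos had a UMI in GCmat2 in w4 and none in w8. Bdnf, the neurotrophin, was at 247.6 and 185.9 CPM in GCmat2 of w4 and w8 against 94.8 and 69.6 CPM in GCmat1. Sorcs3, a sorting receptor of activated neurons, was at 758.1 and 900.0 CPM against 17.5 and 27.2 CPM. Kcnip3 stood at 265.2 and 306.9 CPM against 52.4 and 99.5 CPM, and Nrxn3 at 2904 and 4336 CPM against 525.8 and 736.2 CPM. The study named Bdnf, Sorcs3, Kcnip3, Nrxn3, Rgs6 and Cdh13 for this cluster, so most of the 8 were chosen on these samples and their count is no independent evidence. Egr1 and Nptx2 passed as well and are not among these names. Acvr1c itself is among the markers the study gave for GCmat2. By in situ hybridization, the study also reported more Acvr1c in the granule cell layer of mice kept in an enriched environment. In GCmat1 of w8, nuclei with a Bdnf UMI had 55.0 CPM of Acvr1c (50.5 to 59.7) and those without had 37.2 CPM (34.2 to 40.4), at median depths of 8633 and 7704 UMIs. In w4 the values were 44.6 CPM (35.6 to 55.3) and 29.0 CPM (21.5 to 38.2). In GCyoung of w4 they were 64.3 CPM (59.1 to 69.8) and 54.6 CPM (49.3 to 60.4), and in GCmat2 163.7 and 95.1 CPM in w4 and 131.4 and 135.8 CPM in w8. The intervals overlapped in all of these but GCmat1 of w8. The part of depth in this was not tested.

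Within the pathway list of 48 other ligands, receptors and intracellular components, 29 were tested. From RGL to NPC 3 were higher and 7 lower, with a median log2 change of -0.52 (-0.05 over all genes tested). Counted in either direction, 10 of 29 stand near the 29.5% of all genes called at this step. The largest were Bambi, a pseudoreceptor that blocks type I receptors (72 UMIs in RGL, 0 in NPC, a ratio of 3.59 with NPC set to 3 UMIs), Smad9 (75 and 1 UMIs) and the ligand Tgfb3 (145 and 2 UMIs). From NPC to NB1 4 were higher and 5 lower (all genes 29.3%). The lower ones included the inhibitory Smad6 (7 UMIs in NPC and 1 in NB1) and the ligand subunit Inhbb (7.66 and 0.367 CPM), which both rest on few molecules. The receptor Tgfbr2 fell by 3.46 (SE 0.52, edgeR adjusted p = 3.24e-07) from 31.7 to 2.29 CPM. From NB1 to GCimm1 2 were higher and 2 lower (all genes 12.5%), and from GCimm1 to GCimm2 3 and 2 (all genes 9.43%). Smad1, an effector of the bone morphogenetic protein branch, fell by 0.88 (SE 0.17, adjusted p = 6.96e-05) at the first of these steps, as did the corepressor Tgif1, by 1.66 (SE 0.55, adjusted p = 0.0328). The ligand Bmp6 rose at both of these steps, from 1.19 to 6.58 to 16.2 CPM (log2 2.32, SE 0.59, adjusted p = 0.00325, and log2 1.38, SE 0.38, adjusted p = 0.00904), and Tgfb2 fell by 1.33 (SE 0.18, adjusted p = 1.58e-07) at the later one, from 156.8 to 56.3 CPM. The coreceptor Tgfbr3 rose there by 1.23 (SE 0.23, adjusted p = 0.000103), from 15.6 to 33.0 CPM.

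From GCimm2 to GCyoung 4 of the 29 were higher and 3 lower (all genes 18.9%). Inhbb, called higher (edgeR adjusted p = 0.0356), had 0 UMIs in GCimm2 and 10 in GCyoung (0.577 CPM), so the call rests on few molecules. With GCimm2 set to 3 UMIs the ratio was 1.44. That ratio leaves out the counting error of the 10 UMIs and is no lower limit. The receptor Bmpr1b fell by 2.69 (SE 0.47, adjusted p = 1.1e-05) from 8.02 to 1.04 CPM, and Pmepa1 fell by 1.44 (SE 0.29, adjusted p = 0.000113) from 24.1 to 7.62 CPM. From GCyoung to GCmat1 2 were higher and 2 lower (all genes 3.85%). Bmpr1b fell again, by 2.80 (SE 0.76, edgeR adjusted p = 0.0195), from 1.04 to 0.206 CPM, which rests on few molecules. Pmepa1 rose by 1.49 (SE 0.29, edgeR adjusted p = 0.000368), although its level over all nuclei went only from 7.62 to 8.94 CPM. The calls included the type I receptor Tgfbr1, which fell by 1.21 (SE 0.17, adjusted p = 1.31e-06) from 176.5 to 89.4 CPM. Between GCmat2 and GCmat1, 1 of the 29 was at least 1.5-fold higher in both libraries (Tgfb3, 3.19-fold and 3.61-fold) and 5 were lower (Bmp6, Smad5, Bambi, Smad7 and Pmepa1). These 6 of 29 stand near the 18.5% of all genes that passed, which also were more often lower (1662) than higher (842). Over GCyoung 2 were higher and 6 lower, where all genes had 658 higher and 1557 lower. Smad7 and Pmepa1 are known targets and inhibitors of the pathway. Smad7 was at 0.25-fold and 0.44-fold its GCmat1 level in GCmat2 of w4 and w8. Folds of this list in GCmat2 carry no interval here and can rest on few molecules. Bambi in w4 and Pmepa1 in w8 had a fold of 0, and 1 UMI in GCmat2 of w4 stood for 2.21 CPM.

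Compared per kilobase of gene, introns included and all libraries pooled, Inhba stood first of the 8 in GCmat1 (1.97 CPM per kilobase), followed by Acvr2a (1.88), Acvr1 (0.99), Smad3 (0.97), Acvr1b (0.65), Acvr1c (0.49), Smad2 (0.25) and Acvr2b (0.14). Most GCmat1 nuclei are from w8, and the order differs between libraries. Within w4 Acvr2a stood above Inhba. In GCmat2, again with libraries pooled, Inhba (2.17) and Smad3 (1.92) led, Acvr1c and Acvr1 were both at 1.53 CPM per kilobase, and Acvr2a was at 0.63. Within w4 Smad3 stood below Acvr1 and Acvr1c there. Capture from the 3′ end of RNA makes such comparisons between genes approximate, and the order depends on the division by length. Not divided, the levels in GCmat1 were 177 CPM for Acvr1, 168 CPM for Acvr2a, 108 CPM for Smad3, 44.0 CPM for Acvr1c and 38.9 CPM for Inhba. The genes whose course was most like that of Acvr1c over the 29 sums of library and cluster, by Pearson correlation of log2(CPM + 1), were Nsun7 (r = 0.91), Tub, Ppp3ca, Lrrn2, Camkv, Htr4, Adamts3 and Mtus2 (r = 0.86). Most of them did not share the higher level of Acvr1c in GCmat2. In w8, Nsun7 (101.1 against 116.1 CPM), Tub, Ppp3ca, Lrrn2, Camkv and Adamts3 were lower in GCmat2 than in GCmat1. Htr4 (491.1 against 373.9 CPM) and Mtus2 (260.9 against 201.5 CPM) were higher. The sums of 1 library share depth and animals, and only 3 of these 8 genes stayed among the first 8 by Spearman's rank correlation. Of the other members, Acvr1 had r = 0.79 and Inhba 0.57, while Smad2 was at -0.75.

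Barcodes with no deposited cluster were also counted. The study's methods removed doublets, nuclei of low quality and a group of w4 nuclei that mostly expressed male-associated genes. That group had no counterpart in a second dataset of the study. The study proposes that it may stem from a male animal that was a possible outlier. Of 2679 left-out barcodes, 2602 had at least 1000 detected features, 1628 of them in w4. Each was matched to the cluster whose mean profile it correlated with best, over 3000 variable genes without the 8 members and the pathway list. On nuclei with a known cluster this match found the deposited cluster for 91.7%, and found 204 of 209 GCmat2 nuclei, but only 73.1% of the 279 nuclei it placed in GCmat2 carry that label.

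In w4 the left-out nuclei had more Acvr1c than the deposited nuclei of the cluster they were nearest to. It stood at 131.8 CPM (120.3 to 144.2, 340 nuclei) in those nearest to GCyoung, at 366.0 CPM (353.1 to 379.4, 785 nuclei) in those nearest to GCmat1 and at 432.9 CPM (407.8 to 459.1, 236 nuclei) in those nearest to GCmat2. In w8 the values were 56.3 CPM (46.6 to 67.5, 184 nuclei) nearest to GCmat1 and 76.1 CPM (40.5 to 130.2, 15 nuclei) nearest to GCmat2, the latter below the deposited GCmat2 of w8 (132.7 CPM, 112.1 to 156.0) with overlapping intervals. Acvr1 moved with it in w4, at 485.7, 620.0 and 596 CPM nearest to the same 3 clusters, and so did Inhba, at 56.8, 96.5 and 126.9 CPM. Acvr2a was at 80.8, 44.4 and 36.3 CPM, below the deposited GCyoung and GCmat1 of w4 (105.7 and 159.2 CPM). Smad3 was at 163.0 CPM nearest to GCmat1, against 48.8 CPM in the deposited cluster, and at 47.4 CPM nearest to GCyoung, against 55.7 CPM.

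**Figure D5:**
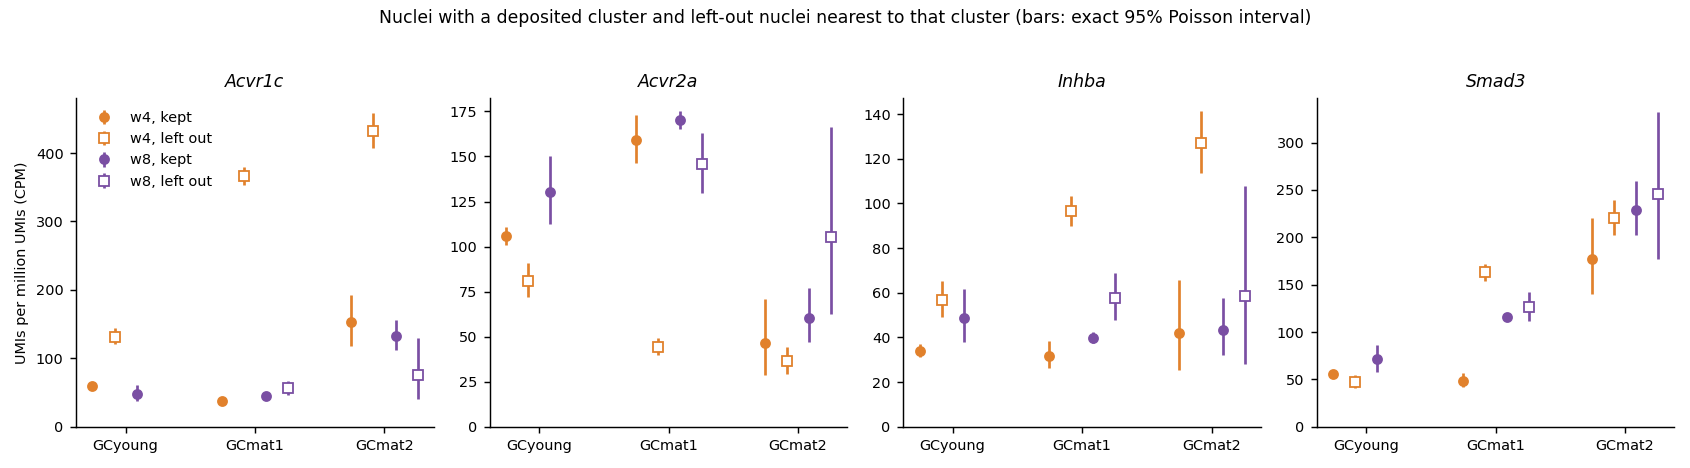
Level of the genes (UMIs in counts-per-million, linear axis from 0) in nuclei with a deposited cluster and in left-out nuclei nearest to the same cluster, for libraries w4 and w8, with exact 95% Poisson intervals as bars. In w4 the left-out nuclei are higher in Acvr1c (366.0 against 37.2 CPM nearest to GCmat1) and lower in Acvr2a (44.4 against 159.2 CPM).

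The naming of these w4 nuclei is uncertain. Those nearest to GCmat1 had 305.1 CPM of Bdnf and 457.4 CPM of Sorcs3, and a summed level of 3355 CPM over the 4 GCmat2 markers, between the deposited w4 GCmat1 (690.5 CPM) and GCmat2 (4175 CPM). Of the activity list, Homer1 and Rgs6 were lower in these nuclei and the others higher, by direction alone and not set against all genes. Several of them rest on few molecules. The deposited w4 GCmat1 had 0 UMIs of Fos and Fosb, 1 of Npas4, 4 of Nr4a1 and 5 of Arc. Cdh13 was at only 1.24-fold and Egr1 at 1.38-fold. Arc was at 7.81 against 1.39 CPM in the deposited w4 GCmat1 and Nptx2 at 25.4 against 2.50 CPM, whereas Homer1 was at 102.2 against 104.5 CPM and Rgs6 at 50.2 against 95.1 CPM. Markers of other kinds moved as well. Ntng1 was at 26.3 against 112.0 CPM and Cpne4 at 38.0 against 190.5 CPM nearest to GCmat1. Nearest to GCmat2 in w4, Gad2 had 44 UMIs (17.2 CPM) against 0 UMIs in the deposited cluster, and Ntng1 was at 80.8 against 462.0 CPM. The 6 RGL markers summed to 93.7 against 53.0 CPM there, with Sox5 at 55.8 against 4.42 CPM and Notch2 at 17.2 against 33.2 CPM. Their part in the Acvr1c level was not tested. The median depth nearest to GCmat1 was 9456 UMIs, against 8613 UMIs in GCmat1 of w4. Sex call moved with the level. Of those nearest to GCmat1 in w4, 636 male-called nuclei had 376.3 CPM of Acvr1c and 55 female-called ones 227.5 CPM, and nearest to GCyoung 145 male-called nuclei had 195.0 CPM and 172 female-called ones 88.3 CPM. In the deposited GCyoung of w4 the 2 calls were at 61.7 and 59.2 CPM. In w8, male-called left-out nuclei nearest to GCmat1 had 61.2 CPM. Whether these values belong to an animal, a cell state or the handling of the sample was not tested.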

How the data were processed

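Nuclei of microdissected dentate gyri were FACS-sorted for GFP and profiled with 10x 3′ chemistry. The authors deposited raw UMI counts per gene and nucleus, aligned with STARsolo 2.7.4a to GRCm38 over exons and introns with multimapping reads excluded, for all 17046 barcodes. They also deposited log2 values (counts divided by a scran size factor, plus 1) with clusters and pseudo-time for 14367 nuclei, after removing doublets (scDblFinder), nuclei of low quality and a group of w4 nuclei. No doublet caller was run again here.

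Here, UMIs were summed per library and deposited cluster of at least 10 nuclei (29 sums, 13513 genes after filterByExpr) and fitted with edgeR 4.0.16 (R 4.3.3; quasi-likelihood, TMM factors, terms for cluster and library, 16 residual degrees of freedom). A call needed a fold of at least 1.5 and an adjusted p of at most 0.05. The p-values rest on the spread left between sums after the cluster and library terms, pooled over clusters. With 1 pool of mice per week, they do not measure the spread between mice or pools of a week. Levels are counts-per-million of the summed UMIs (CPM) with exact Poisson intervals, shares have Clopper-Pearson intervals (scipy 1.17.1), and a count of 0 was set to 3 for limits. A ratio against such a 3 leaves out the counting error of the other group. Intervals cover counting error only. Thinning to 2000 UMIs left out 141 shallower nuclei. Nuclei were called male where Ddx3y, Uty and Eif2s3y had more UMIs than Xist and Tsix, and female in the reverse case.

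All 8 members are named, with up to 3 called pathway genes of largest change per step, the 8 genes closest to Acvr1c, and Bdnf, Sorcs3, Kcnip3 and Nrxn3. Smad7, Homer1, Junb, Fos, Egr1, Arc, Nptx2, Rgs6, Cdh13, Gad2, Sox5, Notch2, Ntng1 and Cpne4 values were singled out after their values were seen. The members and lists were chosen with earlier results of these data known. On simulated counts with 100 genes changed 2-fold and 100 changed 4-fold, the fit recovered 32 to 71 and 76 to 98 of them per step, with 1 to 6 false calls. These counts were drawn from the fit's own means and dispersion, with all other genes equal between the 2 clusters. Genes of very low counts were not among those changed. The simulation therefore cannot give the number of false calls in the data.

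Alternatives were DESeq2 1.42.0, RLE factors, no library term, no filter on low counts, sums of at least 20 nuclei, thinning and leaving out each library. The split by sex call was added after seeing the data. The driver of Cre is not reported here.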

Additional observations from a re-analysis of the deposited data

Results flagged for a closer look

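From GCyoung to GCmat1, Smad3 had differences of opposite sign in w4 and w8, the weeks that hold both clusters in number, although the interval in w4 includes 0. The log2 difference was -0.19 in w4 (exact 95% counting interval -0.43 to 0.05) and 0.71 in w8 (0.42 to 1.01). Each week is 1 library, so the difference between the weeks was not tested.

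In the values that follow, barcodes with no deposited cluster held more of a gene than the deposited nuclei of the nearest cluster in the same library, beyond counting error. In w4, Acvr1c stood at 132, 366.0 and 433 CPM in left-out nuclei nearest to GCyoung, GCmat1 and GCmat2, against 60.04, 37.2 and 152.5 CPM in the deposited nuclei. Acvr1 stood at 486, 620.0 and 596 CPM in the same nuclei, against 309.9, 194.9 and 322.7 CPM. Inhba stood at 56.8, 96.5 and 127 CPM, against 33.9, 31.9 and 42.0 CPM. Smad3 stood at 163.0 CPM nearest to GCmat1, against 48.8 CPM. In w8 the left-out nuclei nearest to GCmat1 had 233 CPM of Acvr1 and 57.8 CPM of Inhba, against 173.4 and 39.9 CPM. Other values went the opposite way. Acvr1c in w8 nearest to GCmat2 was at 76.1 CPM (40.5 to 130.2) against 132.7 CPM (112.1 to 156.0), and Acvr2a in w4 nearest to GCyoung, GCmat1 and GCmat2 was at 80.8, 44.4 and 36.3 CPM against 105.7, 159.2 and 46.4 CPM. The left-out nuclei of w4 include the group that the study removed as a possible outlier. The cause was not tested.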

How the results depend on the processing

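Of 19 called changes of the 8 genes, each refitted under 10 alternatives (190 values), 162 stayed called, 28 were lost and 0 reversed, and 6 changes kept their call under every alternative: Acvr2b and Inhba from RGL to NPC, Acvr2a and Smad2 from NPC to NB1, Acvr1 from NB1 to GCimm1 and Smad3 from GCimm2 to GCyoung. Leaving out 1 library in turn, the number of members called was 3 to 5 from RGL to NPC, 3 to 5 from NPC to NB1, 1 to 3 from NB1 to GCimm1, 0 to 2 from GCimm1 to GCimm2, 2 to 4 from GCimm2 to GCyoung and 0 to 1 from GCyoung to GCmat1. Thinning gave 1 from NB1 to GCimm1 and 4 from GCimm1 to GCimm2, and the fit with no library term gave 0 from GCyoung to GCmat1. Among differences that were not called, that of Acvr2b from GCimm2 to GCyoung reversed without w4 (-1.29 to 0.47 leaving out 1 library), and that of Acvr1c from GCyoung to GCmat1 reversed with DESeq2 (0.41) and without w4 (-0.35 to 0.071 leaving out 1 library). Where sums with few nuclei or libraries were removed, fewer samples bore on a step, and otherwise the cause was not tested.

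Over all genes, calls from GCyoung to GCmat1 went from 520 to 229 with DESeq2, 269 after thinning, 216 without w4 and 219 without w8, and those from GCimm1 to GCimm2 from 1274 to 813 with DESeq2. With no filter on low counts the median log2 change over all genes was -0.15 from RGL to NPC and 0.18 from NPC to NB1.

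The levels of Acvr1c in GCmat2, which chose the genes, are given as values only. Against GCmat1 the mean log2 difference of 1.81 became 0.57 on the deposited log2 values, and 1.58 to 2.04 leaving out 1 library. Against GCyoung, 1.40 became 0.52 on the deposited values, 1.21 after thinning, 1.60 in male-called nuclei and 1.34 to 1.46 leaving out 1 library. Most GCmat2 nuclei of w4 were female-called, so the value of 1.60 rests on few nuclei there. The share of GCmat2 nuclei with an Acvr1c UMI was 24.4% thinned to 2000 UMIs, 37.3% thinned to 4000 UMIs and 55.0% unthinned, and 23.3% to 24.8% leaving out 1 library. In left-out nuclei nearest to GCmat2 over all libraries Acvr1c stood at 364 CPM, and at 335.5 CPM with 1000 variable genes, 429 CPM without nuclei above 3 times the median UMIs, 275 CPM in female-called and 422 CPM in male-called nuclei of w4 and w8. Of the 8 genes most like Acvr1c, 3 stayed by Spearman's correlation and 3 with a pseudocount of 5. Clusters of the same library were compared within it, since the library was a term of the fit, and week itself could not be paired because each week is 1 library.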

Other observations

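The deposited pseudo-time leaves out 220 of 3356 GCmat1 nuclei, 216 of them in w8. Per the study's methods, GCmat1 nuclei high in ventral genes were excluded from it, in a larger number than counted here. Ventral genes were not examined here. In w8 these 216 nuclei had 260.6 CPM of Acvr2a (exact 95% interval 240.6 to 281.9) against 160.5 CPM (155.4 to 165.8) in the 2711 nuclei with a pseudo-time. Acvr1c stood at 22.9 CPM (17.3 to 29.9) against 46.6 CPM (43.9 to 49.5), Acvr1 at 128.4 against 178.1 CPM, and Smad3 at 80.1 CPM (69.1 to 92.2) against 120.0 CPM (115.5 to 124.5). Inhba stood at 34.6 CPM (27.6 to 42.9) against 40.5 CPM (37.9 to 43.2), with overlapping intervals. These are nuclei of 1 library, and the intervals cover counting error only.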
